A study of Mus musculus with 12 samples.

Results

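Mice lacking ERRa were compared 2 h after a treadmill run to exhaustion with sedentary mice of the same genotype, by the RNA of gastrocnemius, a mostly fast-twitch calf muscle. The comparison used 6 of the 12 arrays of the series, the 3 titled as ERRa-null after exercise and the 3 titled as ERRa-null before it. All mice were FVB, labelled male and aged 2 to 3 months, and both groups carried the ERRa-null genotype, so that running was the only labelled difference. The other 6 arrays were wild-type FVB mice at rest and at the same time after the same exercise. The 3 arrays of a group are called biological replicates in the labels. The source labels give the opposite exercise state from the titles for the sedentary ERRa-null and the exercised wild-type arrays. Titles and sample descriptions give the same state for all 12 arrays and were followed here. Which tissues lack the gene, and how the allele was made, is not given in the sources used here.

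ERRa, the product of Esrra, belongs to the nuclear receptors with no known natural hormone and works on DNA with PGC-1 coactivators on genes of mitochondrial respiration and fat oxidation. A bout of exhausting exercise is known to induce stress chaperones, early transcription factors, the coactivator PGC-1alpha and genes that sense stretch of the sarcomere within hours. Many of these transcripts peak and decline quickly, and a single time shows only part of such a course.

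Levels are log2 values, so a difference of 1 is a doubling, and they are compared here between arrays for 1 gene and not between genes. Esrra itself read 6.55, 6.89 and 6.68 on the sedentary ERRa-null arrays and 6.85, 6.58 and 6.73 on the exercised ones. Every one of these was below all 6 wild-type arrays, which read 7.41 to 7.63. Running left a difference of 0.01 ± 0.11 (SE, n = 3 and 3) in ERRa-null muscle, with an adjusted p of 0.973 by limma. Which exons the probes cover is not given, so the remaining signal does not measure intact transcript.

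The 12 arrays had medians of 5.15 to 5.26 and correlated pairwise at 0.97 to 0.987 over all probesets, and the mean of 13 transcripts that define skeletal muscle lay between 12.77 and 12.86 on the 6 ERRa-null arrays. Some arrays stood apart, against their labels. Xist, which is transcribed from the inactive X chromosome of females, read 7.82 and 7.83 on exercised ERRa-null replicates 2 and 3 and at most 4.09 on the other 4 ERRa-null arrays. The Y-linked Eif2s3y read 4.97 and 5.20 on those 2 arrays and at least 8.05 on the other 4. Among wild-type arrays, exercised replicate 3 alone had this female profile. Transcripts of other tissues also differed between the sedentary ERRa-null arrays. Of 7 seminal vesicle markers 6 were on the array, and their mean was 12.17 on sedentary replicate 1 and 3.27 to 3.49 on the other 5 ERRa-null arrays. B cell markers, 5 of 7 on the array, averaged 8.64 on sedentary replicate 1 and 5.68 to 6.10 on the others. Liver markers, 9 of 10 on the array, averaged 5.57 to 8.67 at rest and 5.87 to 6.90 after running, and brown fat markers, 4 of 6 on the array, 5.47 to 7.34 and 5.11 to 5.66. In whole muscle, fewer cells of a type and less RNA per cell cannot be told apart. The part of these profiles in the results was tested only as the alternative fits named with them. Seminal vesicle and brown fat markers were not a covariate in any fit.

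After running, 85 of 13308 tested genes differed in ERRa-null muscle (0.639%), at an adjusted p under 0.05 by limma with Benjamini-Hochberg adjustment. Exercised replicates 2 and 3 had a female profile and no sedentary ERRa-null array did, so running and sex profile cannot be fully told apart. Of these, 51 rose (0.383% of genes) and 34 fell (0.255%). The rises were the larger changes, with a median of 0.90 against -0.62 for the falls. In all 85 the 3 exercised arrays lay entirely beyond the 3 sedentary ones, a separation that 19.0% of all tested genes showed, 8.99% of all upward. Wild-type muscle had 457 such genes (3.43%). The share of rises depended on scaling: 60% here, 76% of calls after each array was centred on its median (76 rose, 24 fell) and 73.7% after quantile normalization (73 and 26).

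The number of calls depended on single arrays and on the sex profile. Without sedentary replicate 1 the calls were 55, without sedentary replicate 3 they were 36, without exercised replicate 2 they were 32 and without exercised replicate 3 they were 41. With the sex profile as a covariate 34 genes were called, 29 higher and 5 lower, among them 26 of the 51 rises and 2 of the 34 falls. Without all arrays of female profile, which leaves exercised replicate 1 alone in its group and takes its spread from the other groups, 16 genes were called, 15 higher and 1 lower, 13 and 1 of them among the original ones. The tissue covariates were the mean marker levels of liver, adipocytes and B cells, without those of seminal vesicle and brown fat. With them 18 genes were called, 15 higher and 3 lower, of which 12 and 2 were among the original ones. All 85 genes kept their direction in these 3 fits, but they were chosen on these same arrays. Exercised replicate 1, of male profile, lay beyond all sedentary arrays for all 51 rises and all 34 falls. That follows from the lack of overlap in all 85 and is not a separate test of the sex profile. The calls on Nr4a3, Hspa1a, Hspa1b, Ppargc1a, Srxn1 and Pvr held wherever they were tested among 17 alternatives, leaving out an ERRa-null array in turn included. Hspa1a was tested in 16 of these. The fit with replicate numbers as a block on the 6 arrays alone is not among the 17. No fall held in all of these alternatives.

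**Figure D1:**
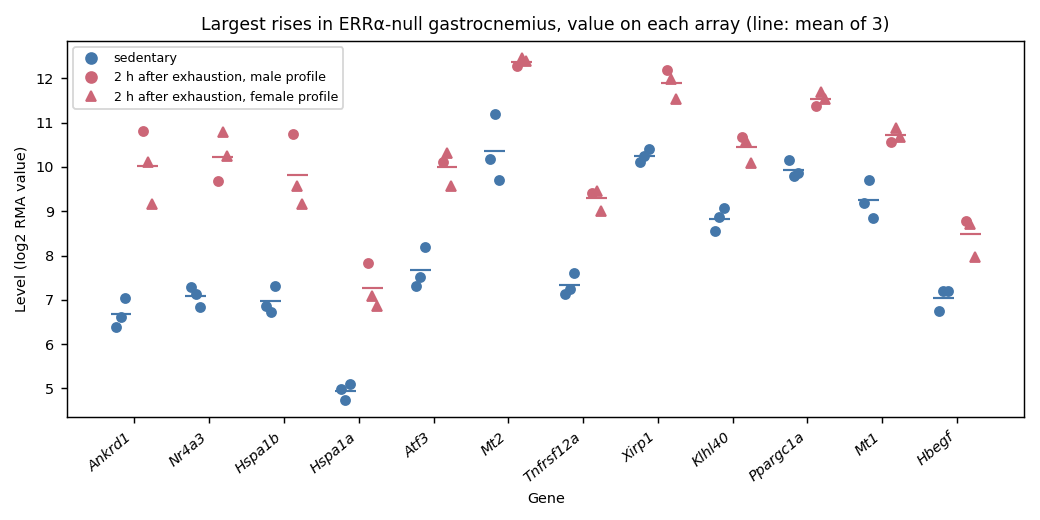
Level (log2 RMA value, vertical axis) of the 12 genes with the largest rises on each ERRa-null array, with blue points for the 3 sedentary and red points for the 3 exercised arrays, triangles for exercised arrays of female profile and a line at each mean. No red point lies at or below a blue point of the same gene, and Ankrd1, Nr4a3 and Hspa1b have the widest gaps.

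Stretch-responsive genes of the sarcomere held the largest single rise. Of 12 such genes tested, 4 rose and 1 fell, with a median difference of 0.41 against -0.01 for all genes. Over all tested genes 0.383% rose and 0.255% fell. Ankrd1 encodes a titin-binding ankyrin repeat protein of the sarcomere and nucleus. It read 6.38, 6.61 and 7.05 at rest and 10.81, 10.11 and 9.17 after running. The lowest exercised array stood more than 2 log2 units above the highest sedentary one, and the difference was 3.35 ± 0.45 (SE), or 10.2-fold, with an adjusted p of 0.00424 by limma. The 3 exercised arrays differed among themselves by more than the sedentary ones, with exercised replicate 3 the lowest. With the tissue covariates the difference was 2.92 and missed the threshold at an adjusted p of 0.104.

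Xirp1, an actin-binding protein of muscle attachment sites, read 10.11, 10.24 and 10.41 at rest and 12.19, 11.98 and 11.54 after running. Its arrays did not overlap, and it rose by 1.65 ± 0.19 (SE) with an adjusted p of 0.0016 by limma. With the tissue covariates its difference was 1.63 and missed the threshold at an adjusted p of 0.0522. Flnc, filamin C, an actin crosslinker at the Z-disc, rose by 0.79 ± 0.15 (adjusted p = 0.0386), and Mustn1, a small nuclear protein of muscle and bone, by 0.68 ± 0.13 (adjusted p = 0.0451). With sex profile in the fit the differences were 0.92 and 0.76, but missed the threshold at adjusted p of 0.0784 and 0.132. Tcap, the cap of titin at the Z-disc, moved the other way. It read 12.17, 12.24 and 12.25 at rest and 11.88, 11.91 and 11.90 after running, and fell by 0.32 ± 0.06 (adjusted p = 0.0472). Its difference was -0.34 at an adjusted p of 0.171 with the sex covariate.

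Further regulators and proteins of the contractile apparatus rose outside that list. Klhl40, a stabiliser of thin filament proteins, read 8.56, 8.87 and 9.07 at rest and 10.69, 10.59 and 10.10 after running, a rise of 1.63 ± 0.20 (adjusted p = 0.00269 by limma). Abra, which couples actin to serum response factor, rose by 1.05 ± 0.12 from 10.96, 11.31 and 11.20 to 12.20, 12.17 and 12.25. The exercised values nearly coincided. Alpk2, a kinase of the alpha-kinase family, rose by 0.90 ± 0.11 on its main probeset, and its other probeset differed by 0.13. Rbm20, which regulates splicing of titin, rose by 0.74 ± 0.09 and Musk, the receptor kinase that organises acetylcholine receptors at the neuromuscular junction, by 0.59 ± 0.07. Musk was the 1 riser of 10 junction genes tested. With the tissue covariates Klhl40, Alpk2, Rbm20 and Musk missed the threshold, at adjusted p of 0.0744, 0.07, 0.0744 and 0.0699. Abra stayed called in that fit (adjusted p = 0.0414). None of the 16 myogenic, MEF2 and ID factors, and none of the 10 slow fibre contractile genes, passed the test, with medians of -0.01 and -0.14.

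Early transcription factors gave 2 large rises and few others. Nr4a3, an orphan nuclear receptor induced through cAMP and calcium signals, read 7.30, 7.13 and 6.84 at rest and 9.68, 10.78 and 10.24 after running. All exercised arrays stood far above the sedentary ones, and it rose by 3.14 ± 0.22 (SE), or 8.81-fold, with the smallest adjusted p of the comparison, 7.55e-05 by limma. It was the 1 gene of 15 in the NR4A and CREB list that was called, and that list had a median of -0.02. Its relatives were not called. Nr4a1 read 10.34, 11.07 and 10.74 at rest and 9.998, 11.37 and 10.48 after running, and Nr4a2 6.38, 8.54 and 7.39 against 6.99, 7.84 and 7.20. For both the groups overlapped, and both differences were -0.10, with SEs of 0.37 and 0.40. Sik1, a kinase that restrains CREB coactivators, differed by 0.42 ± 0.26 (adjusted p = 0.518).

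Atf3, a stress-induced partner of the AP-1 family, read 7.31, 7.52 and 8.19 at rest and 10.11, 10.31 and 9.56 after running, a rise of 2.32 ± 0.30 (adjusted p = 0.00303 by limma). With the sex covariate it was 2.11 (adjusted p = 0.0459). With the tissue covariates it was 1.86 and missed the threshold at an adjusted p of 0.0871. Atf3 was the 1 gene called of 11 in the list of AP-1, ATF3 and small MAF factors. Fos, the classical AP-1 subunit, read 6.10, 7.11 and 6.82 and then 7.45, 8.03 and 6.87, and its groups overlapped, with a difference of 0.77 ± 0.30 (adjusted p = 0.298). Mafk, a small MAF partner of stress factors, differed by 0.48 ± 0.13 (adjusted p = 0.142). None of 22 EGR, IER, KLF and related early genes passed the test, with a median of 0.09. Within that list Csrnp1, an early nuclear factor, differed by 0.54 ± 0.14 (adjusted p = 0.116).

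The 250 bases before the RefSeq start sites of Nr4a3 and Atf3 are shown because these are the 2 early factors that rose and their windows hold the letters marked below. They come from RefSeq on the GRCm38.p6 build and read 5′ to 3′ on the gene's strand. Capitals mark TGACG and its reverse complement CGTCA, the core of the cAMP response element bound by CREB. These windows and this motif were chosen after the values were seen, and the whole element TGACGTCA, searched first, is in neither window.
Nr4a3 (chr4:48045055-48045304, + strand): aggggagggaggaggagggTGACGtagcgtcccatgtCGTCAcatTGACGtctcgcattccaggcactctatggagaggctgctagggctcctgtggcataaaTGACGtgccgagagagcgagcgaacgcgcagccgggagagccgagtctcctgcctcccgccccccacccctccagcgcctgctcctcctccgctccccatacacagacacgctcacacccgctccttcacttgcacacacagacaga
Atf3 (chr1:191183334-191183583, - strand): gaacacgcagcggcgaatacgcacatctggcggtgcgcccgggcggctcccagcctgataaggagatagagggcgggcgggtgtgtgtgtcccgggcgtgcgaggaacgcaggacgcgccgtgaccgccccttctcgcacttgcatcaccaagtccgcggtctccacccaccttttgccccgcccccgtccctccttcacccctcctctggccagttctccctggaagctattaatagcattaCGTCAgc
The Nr4a3 window holds 4 matches and the Atf3 window 1. Of the 34 risen genes with a window, 18 held the letters TGACG on either strand, as did 13 of the 28 fallen genes with one, 28.7% of 10426 tested genes and 17.8% of 32851 windows. The whole element, TGACGTCA, which contains that core, occurred before 3 risen genes (Flcn, Rcan1 and Zdbf2), no fallen gene, 2.86% of tested genes and 1.55% of windows. The AP-1 element TGANTCA, searched on both strands, occurred before 5 risen genes (Bag3, Klhl40, Mt2, Rcan1 and Srxn1), no fallen gene, 5.65% of tested genes and 6.75% of windows. The core of the antioxidant response element, TGACNNNGC, searched on both strands, occurred before 5 risen and 3 fallen genes, 13.8% of tested genes and 10.2% of windows. The glucocorticoid receptor element occurred before 1 risen gene (Mt1), 1 fallen gene (Sgk1), 0.336% of tested genes and 0.387% of windows. The estrogen-related receptor element TNAAGGTCA, searched on both strands, occurred before no risen gene, before 1 fallen gene (Sgk1), 0.758% of tested genes and 1.14% of windows. A match describes letters in a window and not a bound site.

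The heat shock list, mostly cytosolic chaperones that refold or hold damaged proteins, was the group with the most calls. It also holds the mitochondrial chaperonins Hspd1 and Hspe1 and the transcription factor Hsf2, none of them called. Of 24 genes tested in the list, 7 rose and none fell, where 0.383% of all tested genes rose and 0.255% fell. All 24 differences were above 0, with a median of 0.36, where 6280 of all 13308 tested genes were above 0. In 16 of the 24 the arrays after running were all above the sedentary ones, as in 8.99% of all tested genes. Hspa1b and Hspa1a encode the stress-inducible HSP70 and are near-identical neighbours, so their probes may share signal and the 2 are not separate evidence. Hspa1b read 6.87, 6.73 and 7.32 at rest and 10.74, 9.57 and 9.17 after running. It rose by 2.86 ± 0.30 (SE), or 7.24-fold, with an adjusted p of 0.00102 by limma. Hspa1a read 4.98, 4.73 and 5.10 and then 7.83, 7.09 and 6.86, a measured rise of 2.32 ± 0.21 (adjusted p = 0.000469). Its sedentary levels lay below the array medians and below the lowest gene mean tested, 5.32, and were not shown to be above background, so the size of its rise is uncertain. In both, exercised replicate 1 was the highest array.

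Hspb1, the small heat shock protein HSP27, read 8.42, 8.63 and 8.76 at rest and 10.05, 9.62 and 9.65 after running, a rise of 1.17 ± 0.12 (adjusted p = 0.00102 by limma), and its second probeset differed by 0.59. With the tissue covariates the Hspb1 difference was 1.05 and missed the threshold at an adjusted p of 0.0592. Hsp90aa1, the inducible HSP90, rose by 0.72 ± 0.14 (adjusted p = 0.0396). The other called members rose by smaller amounts on the probesets used. Bag3, which hands clients from HSP70 to autophagy, rose by 0.46 ± 0.07, Cryab, the alpha-B crystallin of the Z-disc, by 0.41 ± 0.07, and Hspa8, the constitutive HSC70, by 0.37 ± 0.06. The other Cryab probeset differed by 0.72 and the other 3 of Hspa8 by 0.62, 0.70 and 0.67. With the sex covariate 3 of the 7 stayed called, Hspa1a, Hspa1b and Hspb1, and the median of the list was 0.38. Outside the list, Serpinh1, the collagen chaperone of the endoplasmic reticulum, rose by 0.77 ± 0.13, from 7.68, 7.90 and 7.60 to 8.43, 8.46 and 8.59. With the sex covariate its difference was 0.82 and missed the threshold at an adjusted p of 0.102. The 29 genes of the integrated stress and unfolded protein response had no call and a median of -0.02. Atf4, its central factor, read 9.03, 8.97 and 9.05 and then 9.29, 9.27 and 9.26, a difference of 0.26 ± 0.07 (adjusted p = 0.142), and Xbp1, a factor spliced on endoplasmic reticulum stress, differed by 0.43 ± 0.10 (adjusted p = 0.078).

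The upstream windows of the 3 chaperone genes called with and without the sex covariate follow, in the same format. Capitals mark GAANNTTC, a pair of inverted units of the heat shock element, which reads the same on both strands. The windows and this 2-unit motif were also chosen after the values were seen. The 3-unit element was searched first and had matched no risen gene.
Hspa1a (chr17:34972157-34972406, - strand): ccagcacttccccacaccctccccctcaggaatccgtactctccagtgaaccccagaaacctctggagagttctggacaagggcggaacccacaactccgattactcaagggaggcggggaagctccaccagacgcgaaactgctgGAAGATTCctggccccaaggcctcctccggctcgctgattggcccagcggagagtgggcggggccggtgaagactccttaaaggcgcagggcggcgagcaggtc
Hspa1b (chr17:34959239-34959488, - strand): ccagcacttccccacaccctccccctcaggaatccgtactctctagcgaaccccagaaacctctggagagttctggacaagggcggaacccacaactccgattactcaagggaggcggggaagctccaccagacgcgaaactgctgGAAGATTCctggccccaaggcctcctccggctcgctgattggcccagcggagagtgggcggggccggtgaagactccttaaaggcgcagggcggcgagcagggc
Hspb1 (chr5:135887669-135887918, + strand): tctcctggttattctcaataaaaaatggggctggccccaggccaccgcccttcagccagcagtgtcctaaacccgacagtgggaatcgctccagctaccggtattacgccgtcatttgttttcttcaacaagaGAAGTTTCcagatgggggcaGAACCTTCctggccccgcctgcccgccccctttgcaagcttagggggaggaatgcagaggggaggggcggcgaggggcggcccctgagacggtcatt
The Hspa1a and Hspa1b windows were identical at 247 of 250 bases. GAANNTTC stood before 8 of 34 risen genes (Ankrd1, Hspa1a, Hspa1b, Hspb1, Mustn1, Rcan1, Stbd1 and Tpra1), 1 of 28 fallen genes (Sgk1), 6% of tested genes and 6.69% of all windows. The 3-unit heat shock element, which contains the pair and was searched on both strands, stood before none of these genes, 0.489% of tested genes and 0.466% of windows.

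Of 6 metallothioneins, which bind zinc and copper, and zinc carriers, 2 rose, with a list median of 0.22, where 0.383% of all tested genes rose. Mt2 read 10.18, 11.19 and 9.71 at rest and 12.28, 12.46 and 12.40 after running. The sedentary arrays spread widely while the exercised ones nearly coincided, and Mt2 rose by 2.02 ± 0.28 (SE, adjusted p = 0.00597 by limma). Mt1 rose by 1.46 ± 0.20, from 9.18, 9.71 and 8.85 to 10.57, 10.89 and 10.67, at the same adjusted p. The sex covariate left differences of 1.92 and 1.36, both at an adjusted p of 0.0716.

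Among 17 NRF2 targets and antioxidant enzymes 1 rose, and the list median was -0.02. Srxn1, which restores oxidised peroxiredoxins, read 7.46, 7.30 and 7.45 at rest and 8.67, 8.99 and 8.54 after running. No arrays overlapped, and it rose by 1.33 ± 0.12 (SE), or 2.51-fold, with an adjusted p of 0.00047 by limma. Hmox1, heme oxygenase 1, read 6.04, 6.14 and 6.16 and then 6.44, 7.32 and 7.07, and its difference of 0.83 ± 0.19 missed the threshold at 0.079. Txnrd1, thioredoxin reductase, differed by 0.45 ± 0.10 (adjusted p = 0.0759), and Sod2, the mitochondrial superoxide dismutase, by -0.09 ± 0.09 (adjusted p = 0.697).

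Among metabolic regulators, the coactivator partner of the missing receptor rose. Ppargc1a, which encodes PGC-1alpha, read 10.16, 9.80 and 9.86 at rest and 11.38, 11.69 and 11.53 after running. The groups stood more than 1 log2 unit apart, and it rose by 1.59 ± 0.12 (SE), or 3.02-fold, with an adjusted p of 0.000128 by limma. Of 23 PGC-1 coactivators, ERR relatives and mitochondrial regulators it was the 1 called, with a list median of -0.01. Lpin1, a phosphatidate phosphatase that also coactivates fat oxidation genes, rose by 0.62 ± 0.06, from 10.37, 10.28 and 10.43 to 10.97, 11.05 and 10.92 (adjusted p = 0.000899). It was the 1 called of 20 genes of PPAR receptors, uncoupling proteins and lipid handling. Ucp3, a mitochondrial carrier induced by fatty acids, read 9.28, 9.56 and 8.82 and then 10.04, 9.89 and 9.89, and its difference of 0.71 ± 0.15 missed the threshold at 0.0659. Ppard, the muscle PPAR, missed it at 0.0665 with 0.38 ± 0.08.

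Genes of the respiratory chain and fuel oxidation showed no call at this time. None passed the test among 31 complex I subunits, 13 genes of complexes II and III and cytochrome c, 24 of complexes IV and V, 15 of the tricarboxylic acid cycle and 18 of mitochondrial fatty acid oxidation, and their medians were -0.05, -0.06, -0.06, -0.08 and -0.19. In the fatty acid oxidation list 17 of 18 differences were below 0, within a range of -0.28 to 0.13, where 7027 of all 13308 tested genes were below 0. None of these lists had a call in wild type either. The brown fat marker mean spanned 5.47 to 7.34 at rest and 5.11 to 5.66 after running, the adipocyte marker mean (7 of 8 markers on the array) 8.71 to 9.97 and 8.68 to 9.17, and their part in these values was not tested. Cd36, a fatty acid carrier, differed by -0.33 ± 0.12 (adjusted p = 0.254).

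In the control of pyruvate oxidation a phosphatase fell. Pdp1, which reactivates pyruvate dehydrogenase by removing phosphate, read 8.84, 8.95 and 9.22 at rest and 8.23, 8.03 and 7.94 after running, and fell by 0.93 ± 0.13 (SE, adjusted p = 0.00614 by limma). It was the 1 called of 11 tested genes for the enzyme's subunits, kinases and phosphatases. With the sex covariate the Pdp1 difference was -0.85 and missed the threshold at an adjusted p of 0.0731. Pdk4, the kinase that shuts the enzyme off in fasting and exercise, read 11.75, 11.66 and 11.52 and then 12.08, 11.76 and 11.71. Its groups lay close and overlapped, with a difference of 0.21 ± 0.10 (adjusted p = 0.391). None of 26 genes of glucose uptake, glycolysis and glycogen passed the test, over a range of -1.45 to 0.43. Hk2, the muscle hexokinase that traps glucose, differed by 0.43 ± 0.14 (adjusted p = 0.221), and Slc2a1, a basal glucose carrier, by 0.38 ± 0.10 (adjusted p = 0.137). Stbd1, which tethers glycogen for delivery to lysosomes, rose by 0.79 ± 0.15, from 7.12, 7.46 and 7.34 to 7.75, 8.36 and 8.19 (adjusted p = 0.0428), and was 0.53 with the sex covariate (adjusted p = 0.223).

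Insulin and growth signalling gave 1 call in 20 genes. Irs1, the adaptor of the insulin and IGF receptors, read 8.21, 8.63 and 8.69 at rest and 9.60, 9.44 and 10.10 after running, a rise of 1.21 ± 0.22 (SE, adjusted p = 0.0364 by limma). Its second probeset differed by 0.72, and the mean of both by 0.97 (adjusted p = 0.0885). The sex covariate left a difference of 0.97 at an adjusted p of 0.229. Irs2, its relative, read 7.64, 8.17 and 8.52 and then 9.05, 9.67 and 8.66, a difference of 1.02 ± 0.36 (adjusted p = 0.247). Slc38a2, the SNAT2 carrier of neutral amino acids, rose by 1.23 ± 0.15, from 9.71, 9.23 and 9.81 to 10.73, 11.04 and 10.67. Flcn, folliculin, a regulator of the lysosomal nutrient response, rose by 0.59 ± 0.11 (adjusted p = 0.0423, and 0.55 at 0.229 with the sex covariate).

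Receptors, ligands and feedback inhibitors also rose. Tnfrsf12a, the TWEAK receptor of injured muscle, read 7.13, 7.24 and 7.62 at rest and 9.42, 9.45 and 9.004 after running, a rise of 1.96 ± 0.20 (SE), or 3.89-fold (adjusted p = 0.000899 by limma). Hbegf, a ligand of the EGF receptor, rose by 1.44 ± 0.25, from 6.74, 7.19 and 7.19 to 8.78, 8.71 and 7.97 (adjusted p = 0.0255). Hbegf missed the threshold with the sex covariate and with the tissue covariates, at adjusted p of 0.121 and 0.169 by limma. Pvr, a nectin-like adhesion receptor, rose by 1.32 ± 0.15, from 6.59, 6.82 and 6.95 to 8.37, 8.12 and 7.83 (adjusted p = 0.0016). In all 3 the lowest array after running was replicate 3. Cntfr, the receptor subunit for ciliary neurotrophic factor, rose by 0.999 ± 0.12, from 8.57, 8.83 and 8.48 to 9.40, 9.67 and 9.80.

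Socs3, the feedback inhibitor of IL-6 family receptors, read 6.41, 6.58 and 6.34 at rest and 8.06, 7.77 and 7.35 after running, a rise of 1.28 ± 0.18 (adjusted p = 0.00694 by limma). The difference was 1.64 with the sex covariate, at an adjusted p of 0.000729. With the tissue covariates it was 1.51 and missed the threshold at an adjusted p of 0.057. Socs3 was the 1 call in 15 genes of IL-6 signalling and secreted muscle factors. Stat3, the factor those receptors activate, differed by 0.34 ± 0.10 (adjusted p = 0.164), and Ccl2, a monocyte attractant, by 1.03 ± 0.26 (adjusted p = 0.12). Rcan1, the feedback inhibitor of calcineurin, rose by 1.31 ± 0.20, from 9.03, 9.26 and 9.84 to 10.91, 10.63 and 10.52, as the 1 call of 10 in the calcineurin list. Its difference was 1.28 with the sex covariate and missed the threshold at an adjusted p of 0.0966. Vegfa, the angiogenic growth factor, read 9.75, 9.84 and 9.61 and then 10.17, 10.14 and 9.92, a difference of 0.34 ± 0.12 (adjusted p = 0.261), and none of 14 angiogenesis genes was called.

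Genes of other roles rose as well. Ifrd1, a transcriptional coregulator of muscle regeneration, rose by 0.89 ± 0.14, from 7.55, 7.68 and 7.82 to 8.91, 8.49 and 8.32 (adjusted p = 0.0171 by limma), and stayed called with the sex covariate (adjusted p = 0.00967). It was lost on the ERRa-null arrays alone (adjusted p = 0.0581) and with the tissue covariates (adjusted p = 0.171). It was also lost without sedentary replicate 1 or exercised replicate 2. Thbd, thrombomodulin, an endothelial anticoagulant receptor, rose by 0.93 ± 0.17, and Tubb6, a beta-tubulin of regenerating fibres, by 0.90 ± 0.18. With the sex covariate these 2 differences were 0.68 and 1.09, at adjusted p of 0.229 and 0.0731. Mast4, a microtubule-associated kinase, read 8.59, 8.66 and 8.67 at rest and 9.38, 9.18 and 9.14 after running, a rise of 0.59 ± 0.08 on its main probeset (adjusted p = 0.00531). Its second probeset differed by 0.17, and the mean of both by 0.38 (adjusted p = 0.0507). In wild type its difference was 0.31, with an adjusted p of 0.0618, and the responses differed by 0.28 ± 0.12 (adjusted p = 0.95).

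Glucocorticoid receptor targets moved both ways, with 2 of 16 higher and 1 lower and a median of 0.09. Over all tested genes 0.383% were called higher and 0.255% lower. Zbtb16, a zinc finger repressor induced by glucocorticoids, read 9.16, 8.83 and 8.87 at rest and 10.11, 10.08 and 10.20 after running, a rise of 1.18 ± 0.10 (SE, adjusted p = 0.000446 by limma). Lpin1, given above, was the other riser. Sgk1, a kinase of ion transport and growth, read 9.81, 9.78 and 9.92 and then 9.42, 9.28 and 9.39, and fell by 0.47 ± 0.08 (adjusted p = 0.0255, and -0.54 at 0.0716 with the sex covariate). Per1, a clock repressor and glucocorticoid target, read 9.81, 10.32 and 10.08 and then 9.003, 9.43 and 8.98. Its groups did not overlap, but the difference of -0.93 ± 0.32 missed the threshold at 0.233. None of 17 core clock genes passed, and Arntl, the BMAL1 activator, missed narrowly at 0.0516 with 0.84 ± 0.17. None of 21 atrophy ubiquitin ligases and FOXO factors passed. Fbxo32, atrogin-1, differed by -0.34 ± 0.23, and Trim63, MuRF1, by 0.40 ± 0.27, and the arrays of both overlapped.

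**Figure D2:**
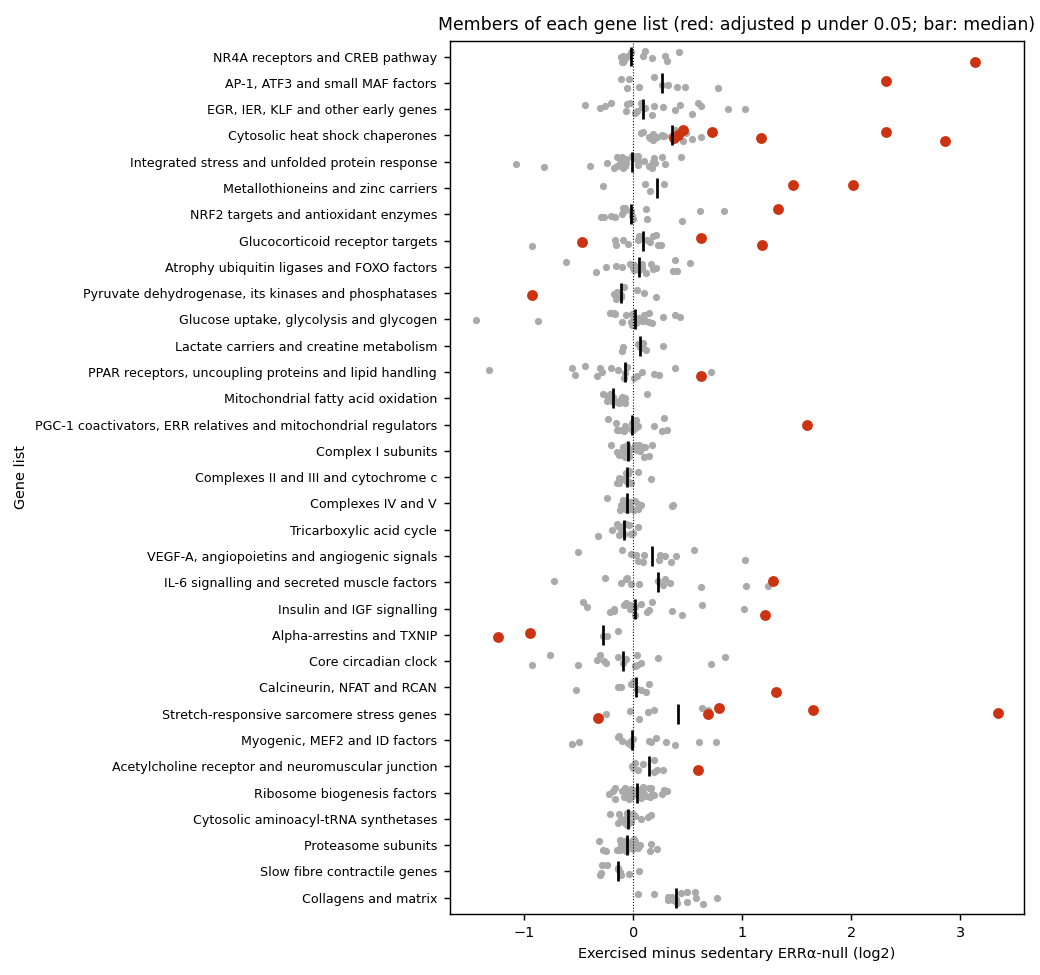
Difference between exercised and sedentary ERRa-null muscle (log2, horizontal axis) for each tested member of each gene list, with red points for adjusted p under 0.05, grey for the rest and a black bar at the list median. Red points are most numerous in the heat shock (7) and stretch-responsive (5) lists, while the respiratory chain lists are narrow and grey.

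The falls were smaller and less stable than the rises. Tfcp2l1, a grainyhead family transcription factor, read 7.49, 7.24 and 8.01 at rest and 6.63, 5.96 and 5.94 after running, the deepest fall at 1.40 ± 0.24 on the log2 scale (adjusted p = 0.0255 by limma). With the sex covariate it was -1.02 at an adjusted p of 0.171. Of 5 alpha-arrestins and TXNIP, adaptors that send receptors and glucose carriers to degradation, 2 fell and all 5 differences were below 0. Of all 13308 tested genes 0.255% fell and 7027 had a difference below 0. Arrdc3 read 9.42, 9.25 and 9.51 and then 8.12, 8.88 and 8.32, and fell by 0.95 ± 0.15 (adjusted p = 0.0171). It was the 1 fall still called on arrays of male profile alone (adjusted p = 0.0121). It was lost on the ERRa-null arrays alone (adjusted p = 0.0923), without sedentary replicate 1, sedentary replicate 3 or exercised replicate 3 and with the tissue covariates, with adjusted p up to 0.103 when 1 array was left out. Arrdc2 read 8.05, 7.89 and 8.15 and then 6.44, 7.08 and 6.84, and fell by 1.24 ± 0.25 (adjusted p = 0.0472, and -1.35 at 0.164 with the sex covariate). Txnip, a brake on glucose uptake of the same fold, differed by -0.24 ± 0.14 (adjusted p = 0.489).

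Acvr1b, a type I receptor of the activin and myostatin pathway, read 8.50, 8.53 and 8.88 at rest and 7.57, 7.70 and 7.83 after running. It fell by 0.93 ± 0.12 (adjusted p = 0.00269 by limma), and by 1.08 with the sex covariate (adjusted p = 0.0055). Acvr2a, a type II receptor of the same pathway, fell by 0.45 ± 0.08, from 9.01, 9.14 and 9.19 to 8.66, 8.56 and 8.77 (adjusted p = 0.0302, and -0.44 at 0.171 with the sex covariate). Both were picked out after their values were seen.

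Trp53inp1, a stress protein of p53 signalling and autophagy, read 7.30, 7.18 and 7.32 and then 6.64, 6.28 and 6.37, and fell by 0.84 ± 0.13 (adjusted p = 0.0124 by limma). Rarres1, a retinoid-responsive membrane protein, read 6.05, 6.15 and 5.89 and then 5.03, 5.07 and 5.07, and fell by 0.97 ± 0.15 (adjusted p = 0.01). Its exercised level was below the lowest gene mean that was tested, 5.32. Mid1ip1, an activator of fatty acid synthesis, fell by 0.67 ± 0.11, and Phyh, the peroxisomal enzyme that starts the breakdown of phytanic acid, by 0.62 ± 0.11. Uri1, a prefoldin-like scaffold, fell by 0.68 ± 0.11, Fam214a by 0.86 ± 0.16, and Shld2, a DNA repair factor of the shieldin complex, by 0.77 ± 0.15. With the sex covariate none of these 7 was called, at adjusted p of 0.0716 for Trp53inp1 and Rarres1 and higher for the others, though the differences were -0.87, -0.99, -0.73, -0.60, -0.56, -0.92 and -0.71 in the order given. Mid1ip1 rests on its main probeset: the other 2 differed by -0.36 and -0.0082, and the mean of its probesets by -0.35 (adjusted p = 0.211). The second probeset of Phyh differed by -0.46, and the mean of both by -0.54 (adjusted p = 0.0804). Gcnt2, a glycan branching enzyme, fell by 0.73 ± 0.10 on its main probeset, but its other 2 probesets differed by 0.13 and -0.05. The calls on Gcnt2, Pdp1 and Acvr1b were the 3 of 34 falls that held when each ERRa-null array was left out in turn, as did 26 of the 51 rises. Gcnt2 and Pdp1 missed the threshold with the sex covariate, at adjusted p of 0.0559 and 0.0731 by limma. They also missed it with the tissue covariates, at 0.0539 and 0.0592, whereas Acvr1b stayed called in both fits.

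**Figure D3:**
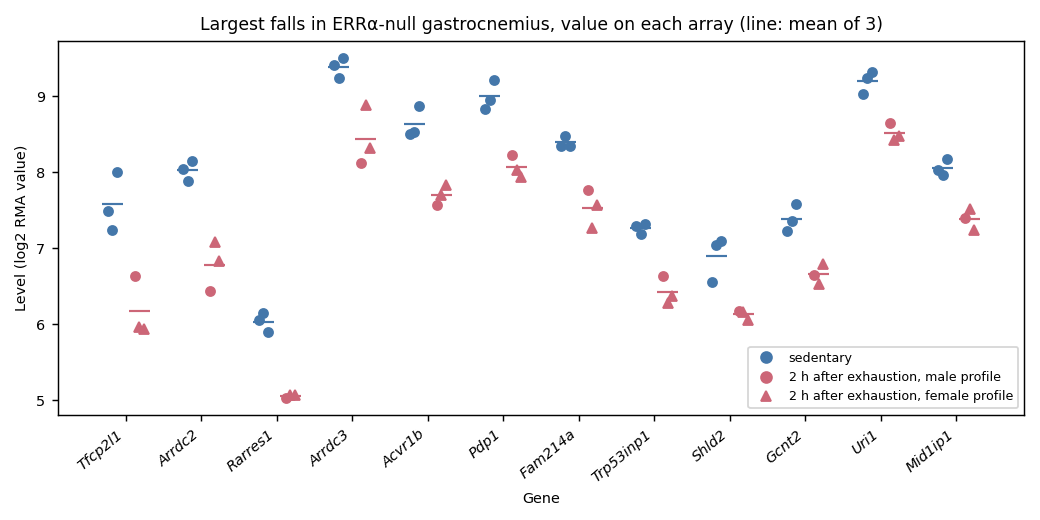
Level (log2 RMA value, vertical axis) of the 12 genes with the largest falls on each ERRa-null array, coded by colour and shape as in the plot of the largest rises. The exercised arrays lie below the sedentary ones for each gene, with Rarres1 and Arrdc2 among the widest gaps.

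The same contrast in wild-type mice addresses how far the response depended on genotype. Of the 85 genes called in ERRa-null muscle, 61 were also called in wild type, which is 71.8% of the ERRa-null calls and 13.3% of the 457 wild-type calls, and none had the opposite sign. The shared calls were 47 of the 51 rises and 14 of the 34 falls, where 2.22% and 1.21% of all genes were called higher and lower in wild type. For 39 of the 51 rises the wild-type difference was the larger, and for 32 of the 34 falls the ERRa-null fall was the deeper. All 85 were chosen on the ERRa-null contrast, and in the fit over all 12 arrays none of them passed the test of the difference between the responses. Unadjusted p was under 0.05 for 17 of the rises and 9 of the falls in that test, and for 681 of all 13308 genes.

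**Figure D4:**
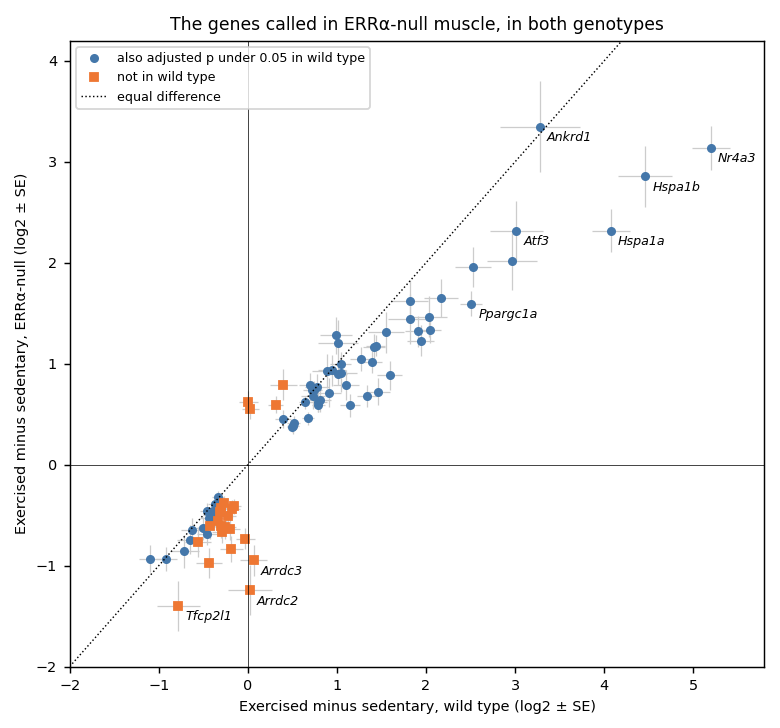
Difference between exercised and sedentary muscle for the 85 genes called in ERRa-null mice, in wild type (horizontal axis, log2) and in ERRa-null mice (vertical axis, log2), with bars of 1 SE, blue circles for genes also called in wild type and orange squares for the rest, and a dotted line of equal difference. Most rises lie below the dotted line, with Nr4a3 at 5.20 in wild type and 3.14 in ERRa-null mice, and Arrdc2 and Arrdc3 lie near 0 in wild type.

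In the fit over all 12 arrays 1 response differed between the genotypes (0.00751%), that of Pdk4. In wild type Pdk4 read 10.85, 10.76 and 10.88 at rest and 12.41, 12.29 and 12.19 after running, a rise of 1.47 (adjusted p = 9.75e-06 by limma), whereas ERRa-null muscle started at 11.52 to 11.75. The response of ERRa-null muscle was lower by 1.26 ± 0.14 on the log2 scale (SE, adjusted p = 0.0121). The sedentary ERRa-null arrays were all above the sedentary wild-type ones, and the exercised ERRa-null arrays all below the exercised wild-type ones. The sex covariate gave -1.18 (adjusted p = 0.00278). The call was lost under quantile normalization (-1.16, adjusted p = 0.0583), when arrays of female profile were dropped (-1.09, adjusted p = 0.0645), and without sedentary wild-type replicate 2, sedentary ERRa-null replicate 2, exercised wild-type replicate 1 or 2, or exercised ERRa-null replicate 3. Over all left-out arrays the difference stayed between -1.38 and -1.19.

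Which gene passed depended on the arrays and covariates. With the sex covariate both Pdk4 and Nr4a3 passed, and without the female-profile arrays Nr4a3 alone did. With tissue covariates Thrsp, a lipogenic protein of fat and liver, passed beside Pdk4 at 1.48, higher in ERRa-null muscle. The next genes by p-value in the fit over all 12 arrays had the same sign as Pdk4 and did not pass there. Nr4a3 read 5.30, 5.52 and 5.24 in sedentary wild type and 10.44, 10.58 and 10.63 after running, so that the sedentary ERRa-null arrays stood higher and the difference of responses was -2.06 ± 0.31 (adjusted p = 0.139 by limma). It was -2.22 with the sex covariate (adjusted p = 0.0265), -2.57 without female-profile arrays (adjusted p = 0.0319), and also passed without exercised ERRa-null replicate 1 (-1.78, adjusted p = 0.0271) or 2 (-2.33, adjusted p = 0.0102). The sedentary wild-type levels were close to the lowest gene mean tested, 5.32. Hspa1a rose from 4.33, 4.11 and 4.11 to 8.51, 8.03 and 8.23 in wild type, and its measured responses differed by -1.75 ± 0.30 (adjusted p = 0.308), from sedentary levels in both genotypes that were not shown to be above background. Without exercised ERRa-null replicate 1 that difference was -2.04 (adjusted p = 0.0077), and that of Hspa1b was -2.06 (adjusted p = 0.0121). Irf2bp2, a transcriptional corepressor, read 8.30, 8.37 and 8.44 and then 8.62, 8.96 and 8.84 in ERRa-null muscle and rose by 1.21 in wild type, with a difference of -0.78 ± 0.14 (adjusted p = 0.308). Hivep2, a zinc finger factor, differed by 0.03 in ERRa-null and rose by 0.52 in wild type, with a difference of -0.49 ± 0.09 (adjusted p = 0.308). Ppargc1a rose from 9.66, 9.44 and 9.36 to 12.04, 11.80 and 12.15 in wild type, and its responses differed by -0.91 ± 0.17 (adjusted p = 0.329).

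Several regulators were called in wild type and not in ERRa-null muscle, which by itself does not show that they differ. Sik1 rose by 2.36 in wild type, and its responses differed by -1.94 ± 0.37 (adjusted p = 0.329 by limma). Nr4a2 rose by 1.82 there, with a difference of -1.92 ± 0.56 (adjusted p = 0.789), and Trim63 by 1.89, with -1.49 ± 0.38 (adjusted p = 0.603). Foxo1, a factor of the atrophy genes, differed by 0.08 in ERRa-null muscle and rose by 0.90 in wild type, with a difference of -0.82 ± 0.23 (adjusted p = 0.748). Nfil3, a clock repressor, rose by 1.81 in wild type and differed by 0.72 in ERRa-null muscle, with a difference of -1.10 ± 0.22 (adjusted p = 0.394). Vegfa, Ucp3, Hk2, Slc2a1 and Slc16a1, the lactate carrier MCT1, rose by 0.86, 1.54, 1.09, 0.83 and 0.84 in wild type.

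Arrdc3 in wild type read 8.40, 8.32 and 8.46 at rest and 8.51, 8.37 and 8.49 after running, levels that the ERRa-null arrays reached after running from a higher sedentary level. Its responses differed by -1.01 ± 0.22 (adjusted p = 0.43 by limma), and by -1.23 without exercised ERRa-null replicate 2 (adjusted p = 0.0136). Arrdc2 in wild type read 7.44, 7.09 and 7.42 and then 6.83, 7.99 and 7.19, with a difference of responses of -1.26 ± 0.35 (adjusted p = 0.698). Ankrd1 rose by 3.28 in wild type, and its responses differed by 0.07 ± 0.63. The responses of Lpin1, Rbm20, Serpinh1 and Acvr1b differed between genotypes by -0.02 ± 0.09, 0.00 ± 0.13, -0.01 ± 0.19 and -0.02 ± 0.16.

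**Figure D5:**
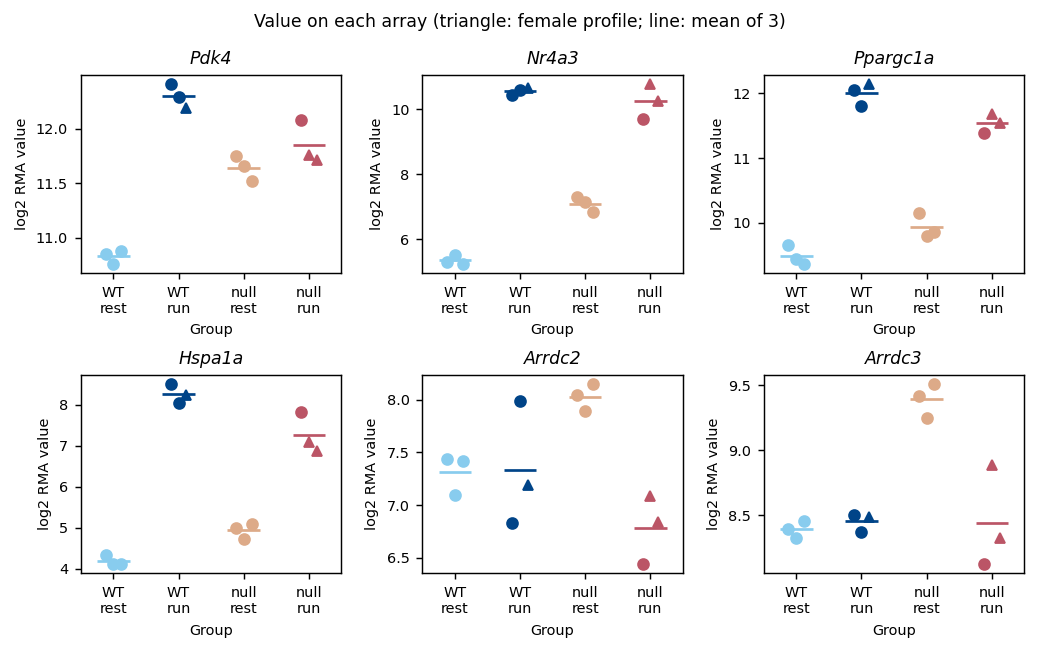
Level (log2 RMA value, vertical axes with separate ranges) of 6 genes on each of the 12 arrays in 4 groups, wild type (WT) and ERRa-null (null) at rest and after the run, with a line at each mean and triangles for arrays of female profile. Pdk4 is high at rest in ERRa-null muscle and changes by 0.21 with the run, and Arrdc3 falls from a higher sedentary level to that of wild type.

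Of 24 genes of the heat shock list 16 rose in wild type and 7 in ERRa-null muscle, with medians of 0.49 and 0.36. For 20 of the 24 the difference was smaller in ERRa-null muscle. Over all tested genes calls were also fewer in ERRa-null muscle, with 0.383% called higher against 2.22% in wild type. Among AP-1 factors 6 of 11 rose in wild type and 1 in ERRa-null muscle (medians 0.77 and 0.26). Among EGR, IER and KLF genes the counts were 8 and 0 of 22 (medians 0.52 and 0.09), and in the integrated stress list 8 and 0 of 29 (medians 0.20 and -0.02). In the stretch list 5 and 4 of 12 rose and 1 fell in each genotype, with medians of 0.43 and 0.41. In the fit over all 12 arrays no member of these 5 lists passed the test of the difference between the responses. Without exercised ERRa-null replicate 2 Mafk did, at -1.08 (adjusted p = 0.0405). Ribosome biogenesis factors (31 tested), aminoacyl-tRNA synthetases (18) and proteasome subunits (29) had no call in ERRa-null muscle, with medians of 0.04, -0.05 and -0.05.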

How the data were processed

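Affymetrix Mouse Gene 2.0 ST arrays measured gastrocnemius RNA, 3 arrays in each of 4 groups. The deposited values are log2 intensities that the authors made with RMA in Affymetrix Expression Console, per the submitters' processing notes, which also name Transcriptome Analysis Console. RMA subtracts background, normalizes between arrays and summarises probes, so levels are relative to the other arrays. Probes were named through the platform annotation: of 41345 probesets 23521 had 1 symbol, 1814 several and 16010 none, and only the first were used. The probeset with the highest mean over the 12 arrays stood for each of 22180 genes. The lowest 40% by mean were left out, leaving 13308.

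A limma (3.58.1, R 4.3.3) fit of 4 group means over all 12 arrays, with 8 residual degrees of freedom and an intensity trend, gave the contrasts, and every adjusted p is Benjamini-Hochberg adjusted over those 13308 genes. Sharing 1 spread over groups assumes that they vary alike. The p-values measure the spread between these mice, and the number of arrays limits precision. Named genes were the 12 largest called rises and falls whose arrays did not overlap, the 5 smallest p-values of the difference between responses, and fixed regulators and list members; others were picked after seeing values. The comparison and the gene lists were chosen with earlier results of these data known. On data simulated for the comparison in ERRa-null muscle over 13308 genes, differences of 0.5, 1, 1.5 and 2 were recovered in 50.4%, 90%, 96% and 98.4%, with 3.88% of calls false. The simulation changed 200 genes and drew independent normal noise for each gene. It held no arrays of female profile and no transcripts of other tissues, so these rates do not carry over to the real arrays. Alternatives changed the filter, trend, scaling, probeset rule, covariates, replicate block and arrays. Upstream windows are RefSeq sequences of GRCm38.p6. The genome build behind the array annotation is not given in the sources used here.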

Additional observations from a re-analysis of the deposited data

Results flagged for a closer look

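The response of Pdk4 to running differed between the genotypes by the test of that difference, at -1.26 on the log2 scale for ERRa-null minus wild type (limma, adjusted p = 0.0121). Its values and the settings under which it missed the threshold are given with the comparison of genotypes.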

How the results depend on the processing

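With 3 arrays a group and a sex profile that moved with exercise, the count of calls was the least stable value. The 85 calls were 54 with no filter on low levels, 34 with the sex covariate, 18 with tissue covariates and 16 without arrays of female profile, and 32 to 93 without 1 ERRa-null array. The 51 rises were 29, 15 and 15 in those 3 fits, and 26 to 53. The 34 falls were 16 with ERRa-null arrays alone, 15 with no filter, 17 without an intensity trend, 5, 3 and 1 with the 3 profile fits, and 4 to 40. The 1 difference between responses became 0 after quantile normalization, 2 with the sex covariate, 2 with tissue covariates, and 0 to 6 with 1 array left out. Wild-type calls, 457, were 303 with the sex covariate and 230 without female profiles, and 221 to 354 without 1 wild-type array, alternatives added after seeing the data.

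Deviations of same-numbered ERRa-null arrays correlated at 0.04, -0.14 and -0.01, and of ERRa-null arrays of unlike number at -0.098 to 0.125. In wild type same-numbered arrays correlated at 0.269, 0.063 and 0.157, and those of unlike number at -0.214 to 0.104. Whether arrays of the same number shared a batch was not tested. The replicate block over all arrays gave 70 calls, 48 higher and 22 lower. On the ERRa-null arrays alone the block gave 0 calls, 0 higher and 0 lower by limma, with 1651 genes at unadjusted p under 0.05.

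Of 1652 values for 92 named genes, 15 changed sign, none of a called gene. Esrra was -0.043 with tissue covariates, and Foxo1 -0.10 with the sex covariate. Without female profiles Foxo1 was -0.11, Trim63 -0.23, Sik1 -0.0084 and Hivep2 -0.016. The other sign changes came from leaving out 1 array: Esrra -0.063 to 0.11, Nr4a1 -0.48 to 0.21, Nr4a2 -0.63 to 0.45, Foxo1 -0.019 to 0.27 and Hivep2 -0.0023 to 0.061. Called genes missed the threshold 346 times. Of 702 list medians 41 moved beyond the replicate spread. The causes were not tested.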

Other observations

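Collagens and matrix genes, which make the connective tissue around fibres, lay above 0 in all 17 genes tested in ERRa-null muscle, over a range of 0.04 to 0.77 with a median of 0.39, beside -0.01 for all genes. None was called by limma, and for 7 of the 17 the exercised arrays all lay above the sedentary ones, as in 8.99% of all tested genes. The same genes had a median of -0.06 in wild type, where 1 was called. With the sex covariate the ERRa-null median was 0.37 and without the arrays of female profile 0.36. Smooth muscle and pericyte markers had a median of 0.14, endothelial markers 0.09 and adipocyte markers -0.55, with no call in any. Their part in the collagen values was not tested.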
